A study of Mus musculus with 18 samples.

Results

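The genes described here encode the 14-3-3 proteins: Ywhab (the beta protein), Ywhae (epsilon), Ywhag (gamma), Ywhah (eta), Ywhaq (theta, also called tau), Ywhaz (zeta) and Sfn (sigma, or stratifin). They make up 7 of the 23420 gene symbols in the count table, taken by name, and all 7 had a row. The family was chosen by its measured values in tumor against control, where its members were described as moving in opposite directions, so those values are given below as a description with no test. In the fits made here that description was only partly met. Ywhag and Ywhah were well below control in the tumor, Ywhae and Sfn lay near control, and no member lay above control in all tumor libraries of either fraction. The 6 members other than Sfn had a mean of at least 10 CPM (counts scaled to library size). Sfn, best known from epithelial cells, had between 7 and 35 counts per library and is described only briefly.

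The study asked how a glioma alters translation in excitatory neurons. RNA came from mouse brain, and every animal, controls included, had the genotype Camk2a-Cre-Rpl22HA. In these mice the Cre recombinase is driven by Camk2a, a kinase gene of forebrain excitatory neurons, and in those cells switches on an HA tag fused to Rpl22, a protein of the ribosome. The 3 conditions were control mice with no tumor, mice with glioma cells implanted in the cortex (tumor), and such tumor mice given AZD8055, an inhibitor of the mTOR kinase (AZD). From each condition there were 3 libraries of total RNA (input) and 3 of polysomal RNA pulled down through the tag (IP), 18 libraries in 6 groups. Dose, time after implantation, age and the identity of the glioma cells are absent from the labels used here. The labels number the libraries 1 to 3 in each group without saying whether a number stands for 1 animal, so the spread behind each p-value is that between libraries and may be technical in part.

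14-3-3 proteins are small, abundant proteins that work as dimers and bind other proteins at phosphorylated serines or threonines. Binding can hold an enzyme inactive, keep a transcription factor out of the nucleus or shield a phosphate from removal, and many clients of AKT, RAF and mTOR signalling are handled this way. Neurons contain much of several family members, which bind kinases, ion channels and cytoskeletal regulators.

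The promoters of 3 members are shown because these genes mark the ends of the family's range across the conditions: among the 6 abundant members, Ywhag and Ywhah had the widest differences between tumor and the other conditions in IP, and Ywhae had the narrowest between tumor and control. Each sequence is the 250 bases before the annotated start in RefSeq GRCm38.p6, read 5′ to 3′ on the gene's strand, and capitals mark matches to the motifs searched. The windows are chr11:75732637-75732886 (plus strand, Ywhae), chr5:135934642-135934891 (minus strand, Ywhag) and chr5:33018566-33018815 (plus strand, Ywhah).
Ywhae: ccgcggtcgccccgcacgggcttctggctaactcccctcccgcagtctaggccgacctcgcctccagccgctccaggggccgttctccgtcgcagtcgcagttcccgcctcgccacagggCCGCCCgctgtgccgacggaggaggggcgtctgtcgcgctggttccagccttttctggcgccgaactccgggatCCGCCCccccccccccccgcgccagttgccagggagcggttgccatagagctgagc
Ywhag: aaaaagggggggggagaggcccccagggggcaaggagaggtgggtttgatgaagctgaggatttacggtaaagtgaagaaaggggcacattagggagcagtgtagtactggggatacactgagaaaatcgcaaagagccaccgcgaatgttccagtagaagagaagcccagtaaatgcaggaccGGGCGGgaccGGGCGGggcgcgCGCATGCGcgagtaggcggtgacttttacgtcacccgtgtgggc
Ywhah: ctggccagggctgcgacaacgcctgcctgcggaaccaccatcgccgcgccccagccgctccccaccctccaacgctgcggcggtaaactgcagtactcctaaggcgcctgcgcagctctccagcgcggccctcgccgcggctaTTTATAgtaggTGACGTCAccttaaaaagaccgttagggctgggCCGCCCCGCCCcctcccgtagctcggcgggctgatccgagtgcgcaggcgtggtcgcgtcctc
The 5 motifs searched, on both strands, were GGGCGG (a GC box), CCAAT (bound by NF-Y), TATAAA (the TATA box), TGACGTCA (the full cAMP response element, bound by CREB) and CGCATGCG (bound by NRF1). All 3 windows held 2 matches to GGGCGG, which in Ywhah overlap by a base. Ywhah also held 1 match each to TATAAA and TGACGTCA, and Ywhag held 1 to CGCATGCG. Of 32851 promoters of the same length, 32.7% held GGGCGG, 33.8% CCAAT, 12.4% TATAAA, 1.55% TGACGTCA and 1.55% CGCATGCG. The windows were rich in G and C, at 73.2% in Ywhae, 58.4% in Ywhag and 68.8% in Ywhah against a median of 52.4% over all promoters. They held 29, 16 and 29 CpG dinucleotides against a median of 6. The table held 5 of the 7 members. Of the others matched, Ywhaq (24 CpG dinucleotides) had 2 matches to CCAAT, and Sfn (3 CpG dinucleotides) had 1. A match describes these letters and does not show that a factor binds there. The genes lie apart in the genome, with Ywhab on chromosome 2, Ywhae on 11, Ywhaq on 12, Ywhaz on 15, Sfn on 4, and Ywhag and Ywhah both on 5, far from each other (135908379 to 135934641 and 33018816 to 33027966).

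Total counts lay between 13561511 and 34178417 per library. By their names the libraries fall into 3 sets: the control and tumor inputs, the control and tumor IPs, and all AZD libraries. A set therefore holds both sides when tumor is compared with control in a fraction, or the fractions with each other in AZD mice. In control and in tumor the fractions come from different sets, and AZD differs from the other conditions in set as well, so there set and group cannot be told apart. Markers of 8 cell types or states, 8 genes each, were summed as CPM, and none of the 8 lists had a marker at 0 in all libraries of a group. The summed excitatory-neuron markers, Camk2a among them, lay at 2468 to 2751 in control input and 3087 to 3797 in control IP. They lay at 914 to 1649 and 1491 to 1876 in tumor input and IP, and at 1233 to 1653 and 3453 to 4161 in AZD input and IP. Markers of oligodendrocyte precursors and glioma, such as Pdgfra and Olig2, lay at 249 to 326 and 218 to 267 in control, 4462 to 5311 and 3801 to 4230 in tumor, and 2062 to 2841 and 393 to 519 with AZD. In bulk RNA, fewer cells of a type and less RNA per cell cannot be told apart.

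The first comparison asked which family members were richer in the polysomal RNA pulled down through the tag (IP) than in total RNA (input). In control mice 5 of the 7 members were higher in IP than in input, against 17.7% of 14958 genes tested that were higher and 18.8% that were lower (edgeR's quasi-likelihood test, with a Benjamini-Hochberg adjusted p under 0.05). The members had a median log2 fold of 0.81, against -0.02 over all genes tested. Ywhae, which binds the neuronal migration factor Ndel1, was measured at 232, 331 and 258 CPM in control input and at 710, 667 and 662 in control IP. Every IP library stood above every input library, by 2.46-fold (log2 fold 1.30 ± 0.12 SE, adjusted p = 8.86e-06). Ywhaz, among the family's most widely expressed members, was at 305, 399 and 344 CPM in input and 775, 660 and 653 in IP. Its IP libraries were again all higher, by 1.97-fold (0.98 ± 0.11, adjusted p = 4.6e-05 in edgeR). Ywhag, a brain-enriched member, stood at 435, 551 and 413 CPM in input and 1006, 853 and 851 in IP, without overlap (0.94 ± 0.12). Ywhab (0.81 ± 0.10) and Ywhah (0.65 ± 0.09) were higher in IP without overlap too. The log2 folds of these 5 genes lay between the 96.5 and 98.9 percentiles of all genes tested. Ywhaq did not pass, at 105 to 119 CPM in input and 117 to 130 in IP (log2 fold 0.13 ± 0.08, adjusted p = 0.233). Neither did Sfn (-0.62 ± 0.33, adjusted p = 0.154). The excitatory-neuron markers gave 5 of 8 genes higher with a median log2 fold of 0.31, against 0.81 over all 7 members. Camk2a, among these markers, was at 0.68 ± 0.12, slightly above Ywhah. The endothelial and pericyte markers gave 7 of 8 lower. Of the astrocyte markers 2 of 8 were higher and 0 lower (median 0.02). They summed to 6749 to 8072 CPM in control input and 6710 to 7148 in control IP. The control IP was therefore not limited to RNA of excitatory neurons. The inhibitory-neuron, oligodendrocyte and microglia markers each gave 2 of 8 lower (medians -0.01, -0.19 and -0.19). The precursor and glioma markers gave 3 of 8 lower (median -0.31). The part of these differences in the members' values was not tested.

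**Figure D1:**
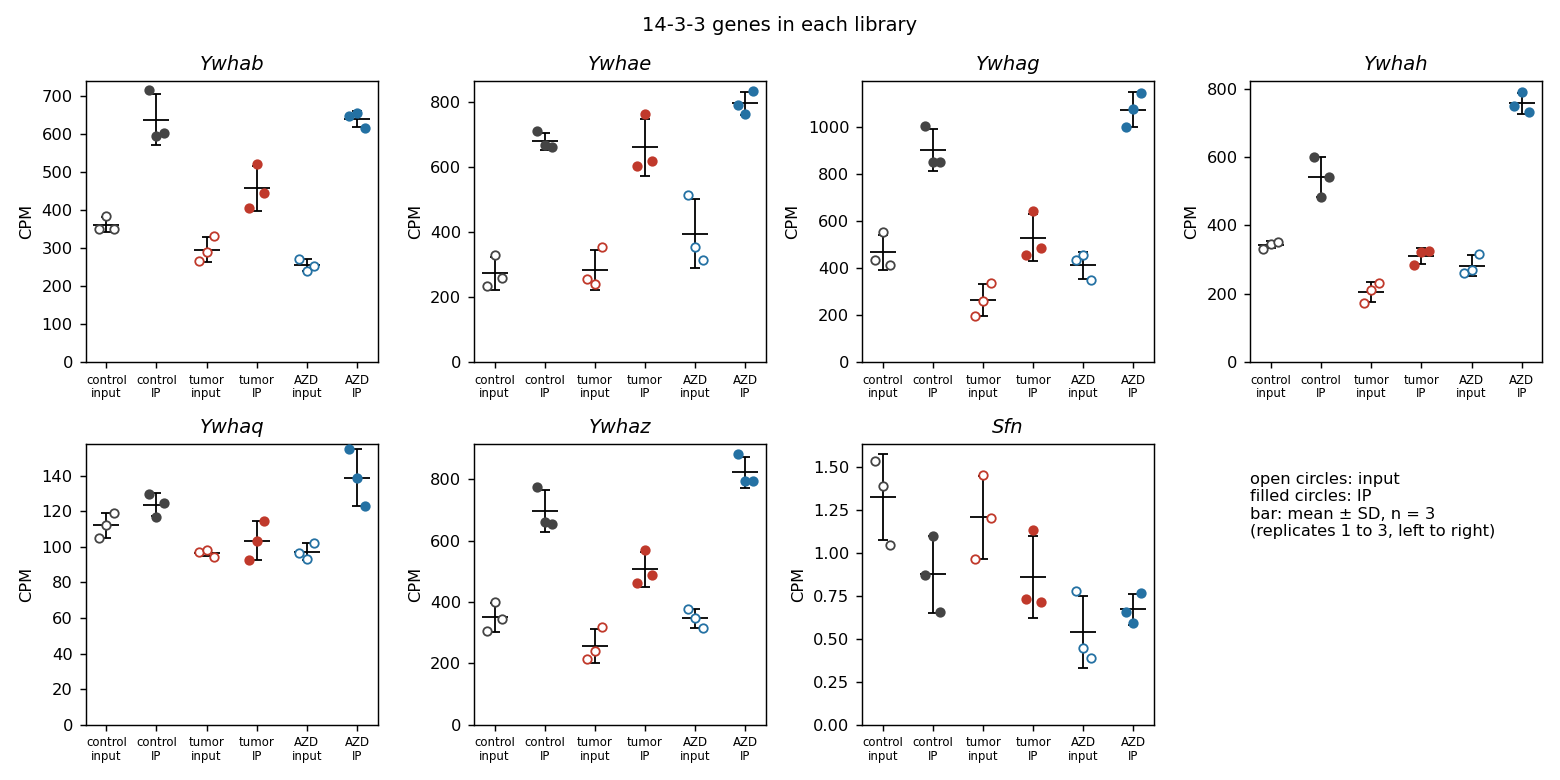
CPM of each 14-3-3 gene (vertical axes, linear from 0, a scale of its own for each gene) in the 6 groups of condition and fraction. Each circle is a library, open for input and filled for IP, with the mean and SD of 3 libraries as bars. In Ywhah the 3 AZD IP libraries (732 to 792 CPM) lie above all others and the 3 tumor IP libraries (283 to 325) lie below the control inputs.

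In tumor the same 5 members were higher in IP than in input, against 2.11% of 15245 genes higher and 2.98% lower. Ywhae stood at 254, 241 and 353 CPM in tumor input and 602, 763 and 618 in tumor IP, a difference of 2.35-fold (log2 fold 1.23 ± 0.18, adjusted p = 0.0141 in edgeR). Ywhag stood at 196, 260 and 334 CPM in input and at 457, 644 and 487 in IP (1.01 ± 0.22, adjusted p = 0.0477 in edgeR). The fractions did not overlap in either gene, although the inputs of Ywhag spread widely. Ywhaz (0.98 ± 0.17), Ywhab (0.64 ± 0.13) and Ywhah (0.61 ± 0.13, adjusted p = 0.0498) were higher without overlap as well. The median over the members was 0.64, against -0.02 over all genes. Of the excitatory-neuron markers 0 of 8 passed in this fit, which does not pair the fractions by number. Their median log2 fold was 0.35, where it was 0.31 in control. Among the other marker lists only that of precursors and glioma had calls, with 2 of 8 lower (median -0.34). The part of these differences in the members' values was not tested. Ywhaq was level between the fractions (0.10 ± 0.10, adjusted p = 0.622), and Sfn did not pass (-0.48 ± 0.33, adjusted p = 0.456). All 5 calls ended when tumor replicate 2 or tumor replicate 3 was left out of both fractions, leaving 0 members past the adjusted threshold in edgeR and 5 at an unadjusted p under 0.05 each time. The log2 folds without those replicates stayed between 0.52 and 1.47. Among genes with a mean of at least 5 CPM, 2 of the 5 passed, Ywhae and Ywhaz, and with no filter Ywhah did not (adjusted p = 0.0545 in edgeR). Same-numbered input and IP libraries deviated together in each condition, and with the number as a block the 5 members passed as well in edgeR, while the count of all genes called went from 776 to 5433. That fit draws each gene's spread towards the spread of all genes, and the pairs of Ywhae themselves differed, with log2 ratios of IP over input of 1.24, 1.66 and 0.81. The shares of 2.11% and 2.98% and the marker counts above come from the fit without this block. Marker lists were not counted with the block.

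With AZD, 6 of the 7 members were higher in IP, against 29% of 15040 genes higher and 32.5% lower. The members' median was 1.27, against -0.02 over all genes tested. Ywhah, the eta protein, was measured at 260, 270 and 316 CPM in AZD input and at 750, 792 and 732 in AZD IP. That made a 2.73-fold difference with wide separation of the fractions (log2 fold 1.45 ± 0.11, adjusted p = 3.72e-05 in edgeR), at the 99.4 percentile of all genes. Ywhag stood at 432, 455 and 347 CPM in input against 999, 1077 and 1147 in IP (1.41 ± 0.13). Ywhab, a partner of RAF kinases, stood at 271, 240 and 252 CPM in input against 646, 655 and 617 in IP (1.35 ± 0.09). In both genes the fractions did not overlap. Ywhaz (1.27 ± 0.11) and Ywhae (1.04 ± 0.18) were higher too. The Ywhae inputs were uneven, at 515, 355 and 313 CPM, with all 3 below the IP libraries (792, 764 and 835). Ywhaq was higher by 0.53 ± 0.10 (adjusted p = 0.00215 in edgeR), but with plain library totals as the scaling its log2 fold was 0.25 (adjusted p = 0.0541). That scaling moved the median log2 fold of all genes to -0.30. Sfn did not pass (0.32 ± 0.40, adjusted p = 0.513). In the same libraries all 8 excitatory-neuron markers were higher in IP (median log2 fold 1.44), and all 8 astrocyte markers (median -1.81) and all 8 markers of oligodendrocyte precursors and glioma (median -2.31) were lower. The part these shifts have in the members' values was not tested.

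**Figure D2:**
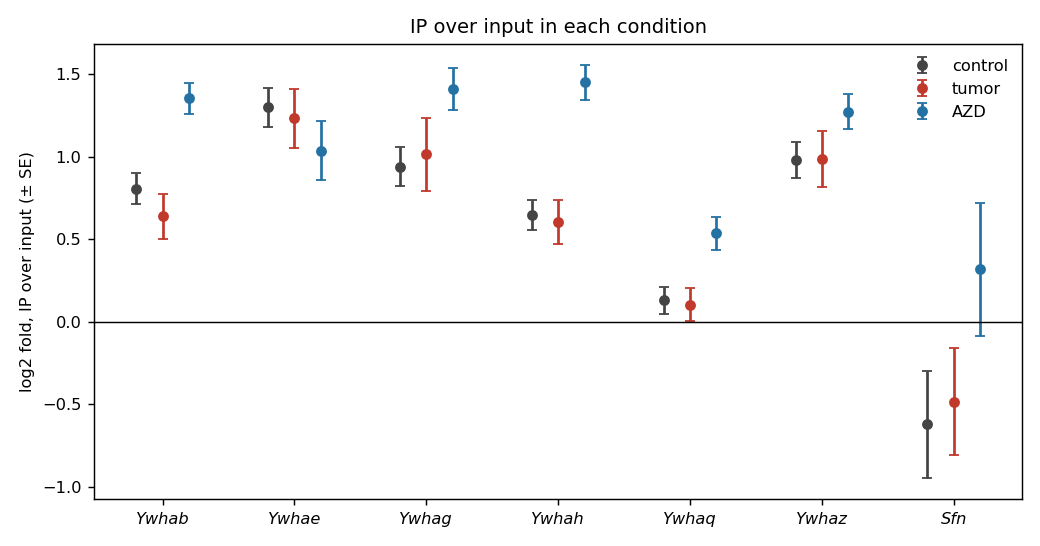
Log2 fold of IP over input for each 14-3-3 gene (vertical axis) in control, tumor and AZD mice, from edgeR with 3 libraries per fraction; bars are standard errors and the line marks 0. Ywhab and Ywhah are at 1.35 and 1.45 with AZD against 0.64 and 0.61 in tumor, whereas Ywhae is at 1.04 with AZD against 1.23 in tumor.

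Whether the gap between IP and input differed between conditions was tested as a difference of differences over all 18 libraries. The gap was larger with AZD than in tumor for 3 members, Ywhah, Ywhab and Ywhaq, against 12.3% of 16016 genes with a larger gap and 20.8% with a smaller one. In Ywhah it was larger by 0.83 ± 0.16 on the log2 scale (adjusted p = 0.00129 in edgeR), and in Ywhab by 0.70 ± 0.16 (adjusted p = 0.00328). In Ywhaq the difference was 0.41 ± 0.14 (adjusted p = 0.0293). For Ywhaq it did not pass with plain library totals (0.23, adjusted p = 0.159) or without AZD replicate 1, AZD replicate 2, tumor replicate 1 or tumor replicate 2 (adjusted p = 0.0745 to 0.115 in edgeR). Ywhag (0.38 ± 0.25), Ywhaz (0.27 ± 0.20), Ywhae (-0.21 ± 0.25) and Sfn (0.79 ± 0.49) did not pass, with adjusted p of 0.227 to 0.548. The same 3 members had a larger gap with AZD than in control, against 11.7% of genes with a larger gap and 19.3% with a smaller one. The differences there were 0.77 ± 0.16 in Ywhah (adjusted p = 0.00239 in edgeR), 0.51 ± 0.16 in Ywhab (adjusted p = 0.0219) and 0.37 ± 0.14 in Ywhaq (adjusted p = 0.0495). Both comparisons use the same AZD libraries, which form a library set of their own. The tumor and control libraries in them also entered the choice of the family, so these p-values are not free of that choice. Under plain totals only Ywhah passed against control, as it did when AZD replicate 2, control replicate 2 or control replicate 3 was left out. Ywhaq also did not pass there without AZD replicate 1 (adjusted p = 0.176 in edgeR) or among genes with a mean of at least 5 CPM (adjusted p = 0.0598 in edgeR). Between tumor and control the gap differed by -0.19 to 0.12 among the 7 members, given without a test because tumor against control chose the family. Marker lists moved in the same test. Between AZD and tumor the gap was larger for 6 of 8 excitatory-neuron markers (median 1.12) and smaller for all 8 astrocyte (median -1.88), all 8 precursor and glioma (median -1.87) and all 8 endothelial and pericyte markers (median -2.07). Between AZD and control the gap was also larger for 6 of 8 excitatory-neuron markers (median 1.22) and smaller for all 8 of each of those other lists. Their part in the members' differences was not tested.

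Tumor against control, the contrast behind the choice of these genes, is described next by its values alone. In the IP fraction 5 of the 7 members had all 3 tumor libraries below all 3 control libraries, where 60.6% of genes had no overlap in either direction. In the input 4 of 7 did, where the share was 59.9%. Ywhah was at 601, 483 and 542 CPM in control IP and at 283, 322 and 325 in tumor IP. The tumor libraries lay close together and far below control, with a log2 fold of -0.78 ± 0.11. Its input libraries showed the same step, from 332, 346 and 351 CPM in control to 171, 212 and 230 in tumor (-0.76 ± 0.12). Ywhag was at 1006, 853 and 851 CPM in control IP and 457, 644 and 487 in tumor IP, again without overlap (-0.75 ± 0.14). In input it was at 435, 551 and 413 CPM in control and 196, 260 and 334 in tumor (-0.84 ± 0.19). Ywhab and Ywhaz had smaller differences, of -0.45 ± 0.12 and -0.43 ± 0.11 in IP. In input Ywhab was at -0.31 ± 0.11, and Ywhaz was at -0.46 ± 0.16 with a tumor library inside the control range. Ywhaq was lower by the least of the 5, at -0.23 ± 0.11 in IP and -0.23 ± 0.09 in input.

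Ywhae stood apart from these genes by its level values. It was at 710, 667 and 662 CPM in control IP and 602, 763 and 618 in tumor IP, so the tumor libraries fell on both sides of the controls. The log2 fold was -0.01 ± 0.11 in IP and 0.03 ± 0.21 in input, and its sign changed in 4 and 3 of 11 alternative settings. Sfn was at 0.01 ± 0.34 in IP and -0.15 ± 0.35 in input, with overlapping libraries. The excitatory-neuron markers moved with the lower members: in IP 7 of 8 were lower in tumor than in control, with a median log2 fold of -0.84. Of the inhibitory-neuron markers 7 of 8 were lower (median -1.07) and of the oligodendrocyte markers 6 of 8 (median -1.15), while all 8 glioma and precursor markers (median 3.42) and all 8 proliferation markers (median 4.98) were higher. Their part in the members' values was not tested.

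**Figure D3:**
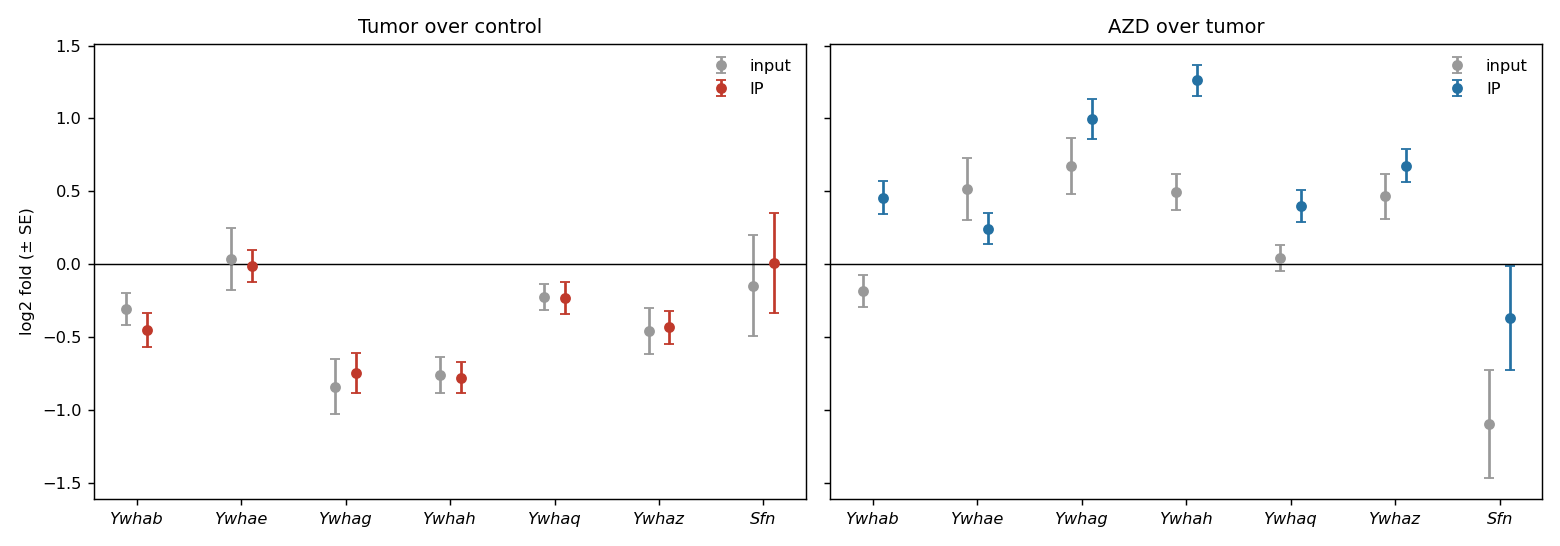
Log2 folds of each 14-3-3 gene for tumor over control (left) and AZD over tumor (right) in input (grey) and IP (colour), with standard errors from edgeR fits of 9 libraries each; the line marks 0. Ywhag and Ywhah lie lowest on the left (-0.75 and -0.78 in IP) and highest on the right (0.99 and 1.26 in IP), with Ywhae near 0 on the left. Both panels use the same tumor libraries.

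AZD against tumor shares the tumor libraries with the preceding comparison, so mirrored values are partly built in and its values are also given without a test. In the IP fraction 6 of the 7 members had all AZD libraries above all tumor libraries, where 63.4% of genes had no overlap in either direction. Ywhah, at 750, 792 and 732 CPM in AZD IP against 283, 322 and 325 in tumor IP, had a log2 fold of 1.26 ± 0.11, or 2.40-fold. Ywhag, at 999, 1077 and 1147 CPM against 457, 644 and 487, had 0.99 ± 0.14. In both genes the lowest AZD library was far above the highest tumor library. Ywhaz followed at 0.68 ± 0.11, Ywhab at 0.46 ± 0.12, Ywhaq at 0.40 ± 0.11 and Ywhae at 0.24 ± 0.11. In input only 3 members had no overlap, where 34.4% of genes had none. Ywhag (0.68 ± 0.19) and Ywhah (0.49 ± 0.12) were higher there, and Sfn, with 17, 7 and 7 counts in AZD input, was lower (-1.10 ± 0.37). In IP all 8 excitatory-neuron markers were higher with AZD than in tumor (median 1.17), against 25.1% of genes higher and 33.5% lower. All 8 markers were lower in each of the lists for oligodendrocytes, astrocytes (median -2.14), microglia (-2.27), endothelium and pericytes (-2.29), and precursors and glioma (-3.24). Of the inhibitory-neuron markers 7 of 8 were lower in IP (median -1.47). In input 3 of those 8 were higher and 0 lower (median 0.43), where 7.89% of genes were higher and 9.17% lower. The log2 folds of the excitatory-neuron markers in input had quartiles of -0.10 and 0.27, and all 8 precursor and glioma markers were lower (median -1.26). The part of these shifts in the members' values was not tested.

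Set against control instead, the AZD values divided by fraction. In IP, Ywhah (0.48 ± 0.11), Ywhaz (0.24 ± 0.11) and Ywhae (0.23 ± 0.11) had all AZD libraries above all controls, 3 of 7 members where 52.1% of genes had no overlap. Ywhab was level with control (0.00 ± 0.11), and Ywhag (0.25 ± 0.14) and Ywhaq (0.16 ± 0.11) overlapped it. In input 4 of the 7 lay below all controls without overlap, where 57.2% of genes had none: Ywhab (-0.49 ± 0.11), Ywhah (-0.27 ± 0.12), Ywhaq (-0.19 ± 0.09) and Sfn (-1.24 ± 0.38). Ywhah thus lay above control in AZD IP and below it in AZD input, and the AZD libraries are a set of their own. Markers differed between AZD and control as well. In IP, where 16% of genes were higher and 17.4% lower, all 8 markers were lower for inhibitory neurons (median -2.42), oligodendrocytes (-2.91), microglia (-2.44) and endothelium and pericytes (-2.31), and 3 of 8 excitatory-neuron markers were higher (median 0.25). Of the astrocyte markers 7 of 8 were lower (median -1.82), and all 8 proliferation markers were higher (median 2.48). The precursor and glioma markers gave 3 of 8 higher and 2 lower (median 0.17). In input, where 20.7% of genes were higher and 16% lower, 6 of 8 excitatory-neuron markers were lower (median -0.83) and 7 of 8 precursor and glioma markers higher (median 2.21). The proliferation markers summed to 262 to 815 CPM in AZD input and to 16.6 to 26.3 in control input. Their part in the split between the fractions was not tested.

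Counts within the family do not depend on how libraries are scaled, so each member's share of the 7 genes' counts was followed across the groups. A longer transcript gives more counts, so a share is compared between groups and not between genes. Ywhae made up 19.0% ± 0.89 (SD, n = 3) of the family's counts in the control IPs, 25.7% ± 0.68 in those of tumor and 18.8% ± 0.77 in those of AZD. In input it made up 14.3% ± 1.20, 20.1% ± 1.87 and 21.9% ± 3.97, so its share was higher in tumor than in control in both fractions. A gene that stays level gains share where others are lower, as Ywhag and Ywhah were in tumor, so this rise is built in. Tumor against control also chose the family, so the shares are a description only. Ywhah took 15.1% ± 0.75, 12.1% ± 1.06 and 17.9% ± 0.77 of the IP counts in control, tumor and AZD. Ywhag took 25.2% ± 0.39, 20.5% ± 1.31 and 25.4% ± 1.68. Among the IP groups both shares were lowest in tumor. Ywhaz held nearly the same share in all 6 groups, with means between 18.3% and 19.7%. Summed over the 7 genes, the family reached 1907 ± 193 CPM in control input, 1400 ± 238 in tumor input and 1786 ± 155 in AZD input. In IP it reached 3584 ± 308, 2568 ± 321 and 4232 ± 14.6.

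**Figure D4:**
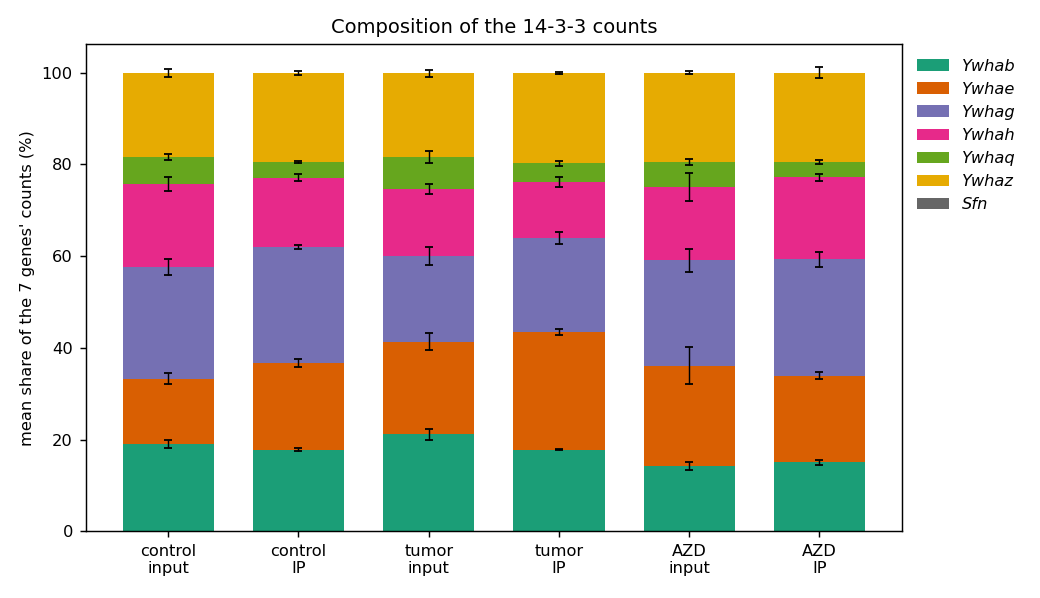
Mean share of each gene in the counts of the 7 14-3-3 genes (vertical axis, percent, from 0 to 100) in each group of 3 libraries; bars are the SD of each share, drawn at the top of its segment. The Ywhae segment is widest in tumor IP (25.7%), where the Ywhah segment (12.1%) is at its narrowest, and Sfn is too small to see.

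Over the 18 libraries the members followed each other to different degrees. Pearson's r of log2 CPM, given as a description since libraries of a group share their condition and fraction, was highest between Ywhag and Ywhaz (0.97) and between Ywhag and Ywhah (0.95). It was lowest between Ywhae and Ywhaq (0.56) and next lowest between Ywhae and Ywhah (0.72). Among 10329 genes with a mean of at least 10 CPM, those most like Ywhah were Napg (0.99) and Nsf (0.99), which take apart SNARE complexes after vesicle fusion, and Map2k1 (0.99), the kinase MEK1. Ywhag was closest to Gnaq (0.98), a G protein alpha subunit, Fam117b (0.98) and the planar polarity gene Prickle2 (0.97). Ywhaz was closest to Prkar1a (0.98), a regulatory subunit of protein kinase A, Actr2 (0.98), part of the ARP2/3 complex, and Fkbp1a (0.98). Ywhab was closest to the nuclear import gene Kpna3 (0.98), the Krebs cycle gene Idh3a (0.98) and Ube2k (0.97). Ywhae had lower top values, with the small GTPases Rap2b (0.95) and Rab18 (0.95) and Rsbn1l (0.94), as did Ywhaq with Armc8 (0.97), the mitochondrial dismutase Sod2 (0.96) and Rnmt (0.95). The median r with all genes of at least 10 CPM outside the family, the left-out names included, lay between 0.09 and 0.13 for the 6 members.

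Partners of 14-3-3 proteins were followed in a list of 45 genes in 5 groups: RAF kinases and scaffolds, clients of AKT and mTOR signalling, cell cycle regulators, transcription coregulators, and neuronal and cytoskeletal clients. What is measured is their RNA, not their binding. Tumor against control in IP gave 12 of 45 partners higher and 14 lower, against 26.1% of 15734 genes higher and 20.9% lower, with medians of -0.12 for partners and 0.02 for all genes. In the cell cycle group 5 of 6 were higher, among them Cdc25c (4.04 ± 0.37), a phosphatase that starts mitosis, the checkpoint kinase gene Chek1 (2.37 ± 0.28) and the CDK inhibitor gene Cdkn1b (0.90 ± 0.11). Cdc25c had only 21, 10 and 7 counts in the control IP libraries and Chek1 had 61, 47 and 51, which limits their precision. The kinase gene Wee1 did not pass (-0.08 ± 0.08, adjusted p = 0.452). Among the RAF kinases and scaffolds described here, Ksr2 (-0.99 ± 0.17), Braf (-0.63 ± 0.13) and Araf (-0.41 ± 0.11) were lower, and Ksr1 did not pass (-0.21 ± 0.11, adjusted p = 0.118). Of 10 AKT and mTOR clients 3 were higher, such as the insulin receptor substrate gene Irs1 (0.79 ± 0.10) and the transcription factor gene Foxo4 (1.02 ± 0.17), and 2 were lower, Grb10 (-0.87 ± 0.21) and Foxo1 (-0.48 ± 0.15). Of 15 neuronal and cytoskeletal clients 8 were lower, such as the potassium channel gene Kcnk9 (-1.01 ± 0.17) and the ubiquitin ligase gene Nedd4l (-0.91 ± 0.15), and 2 were higher, Mark3 (0.54 ± 0.10) and Tph2 (1.31 ± 0.27). Tph2 had only 34, 19 and 38 counts in the control IP libraries. The coregulator group gave 1 of 9 in each direction, Wwtr1 (0.51 ± 0.15), which encodes TAZ, and the CREB coactivator gene Crtc1 (-0.82 ± 0.17). Input gave 11 of 45 higher and 17 lower, against 24.5% and 23.6% of 15511 genes.

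AZD against tumor in IP gave 16 of 45 partners higher and 17 lower, against 25.1% and 33.5% of genes. All 6 cell cycle genes passed the test, 5 of them lower, such as Cdc25c (-2.10 ± 0.33), Chek1 (-2.23 ± 0.28) and Cdkn1b (-0.86 ± 0.11). The scaffold gene Ksr1 was higher (0.88 ± 0.11). Irs1 (-0.83 ± 0.10), Foxo1 (-1.02 ± 0.15) and Foxo4 (-0.94 ± 0.17) were lower among AKT and mTOR clients, and Bad, a death-promoting BCL2 relative held by 14-3-3 proteins, was higher (0.45 ± 0.13). The neuronal group gave 8 of 15 higher, such as Ndel1 (0.82 ± 0.10) and the tau gene Mapt (0.85 ± 0.14), and 4 lower, such as Kif13b (-1.10 ± 0.17) and Th (-3.65 ± 0.61). Th had only 3, 9 and 2 counts in the AZD IP libraries, which limits its precision. Among coregulators Wwtr1 was lower by far (-2.40 ± 0.17). The input gave 1 partner higher, Bad (0.62 ± 0.17), and 2 lower, Chek1 (-0.92 ± 0.21) and Cdc25a (-0.46 ± 0.14), against 7.89% and 9.17% of genes. That count was 0 without AZD replicate 2 (edgeR, with 9 partners at an unadjusted p under 0.05) and 1 without AZD replicate 3 or tumor replicate 3.

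**Figure D5:**
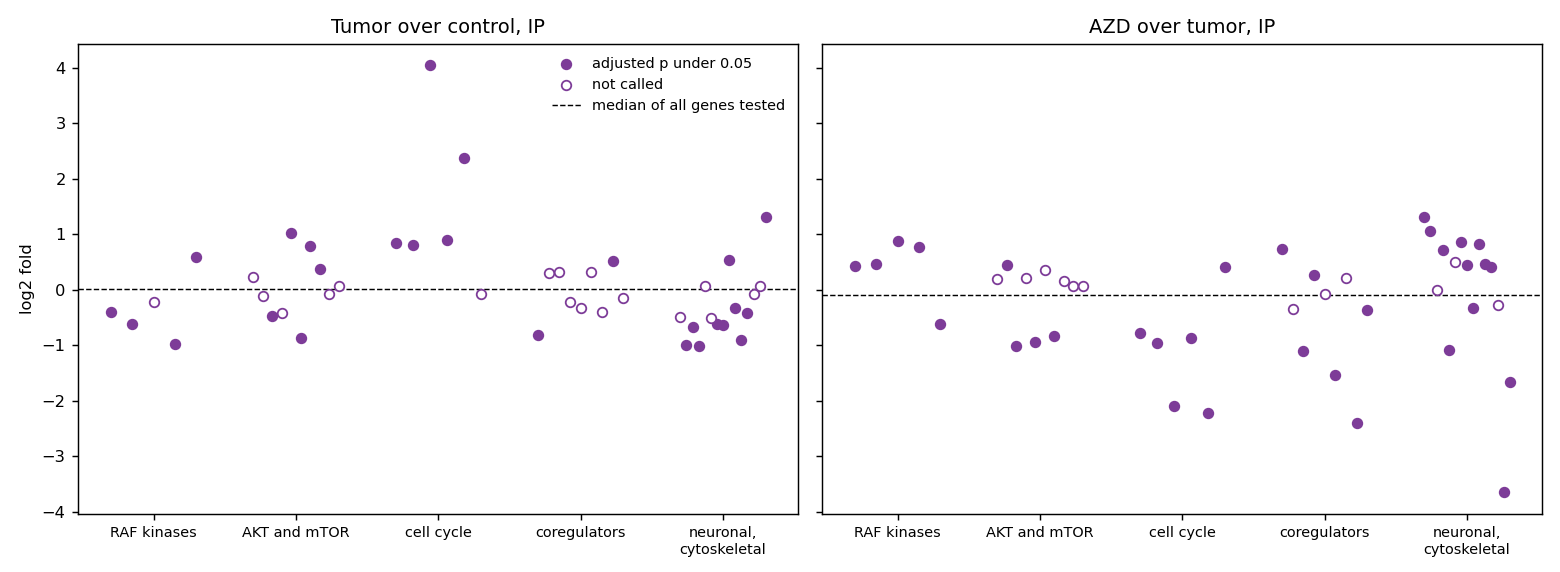
Log2 folds of the 45 partner genes (circles) by group for tumor over control (left) and AZD over tumor (right) in IP, from edgeR with 3 libraries per group; filled circles have an adjusted p under 0.05 and the dashed line is the median of all genes tested. Cell cycle genes lie highest on the left (Cdc25c at 4.04, Chek1 at 2.37) and are at -2.10 and -2.23 on the right. Cdc25c had only 21, 10 and 7 counts in the control IP libraries.

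The same partners were followed between IP and input. With AZD 18 of 45 were higher and 16 lower (11 and 19 with plain library totals), against 29% and 32.5% of all genes. Pafah1b1 (0.89 ± 0.10), the lissencephaly gene whose protein works with Ndel1, Nedd4l (1.09 ± 0.14), Ndel1 (0.78 ± 0.11) and Braf (0.73 ± 0.10) were higher, and Cdc25b (-1.51 ± 0.18), Crtc2 (-1.30 ± 0.14) and Wwtr1 (-1.96 ± 0.18) lower. In control 12 of 44 were higher and 7 lower (7 and 9 with plain library totals), against 17.7% and 18.8% of genes, including Nedd4l (0.73 ± 0.08), Pafah1b1 (0.55 ± 0.09) and Yap1 (0.57 ± 0.10) higher and Tsc2 (-0.65 ± 0.09), the mTOR inhibitor gene, and Crtc2 (-1.22 ± 0.17) lower. The control count of 19 was 11 without control replicate 3. In tumor 1 of 45 was higher, Yap1 (0.62 ± 0.10), and 3 were lower, Tsc2 (-0.63 ± 0.10), Hdac7 (-0.95 ± 0.17) and Crtc2 (-1.02 ± 0.19), against 2.11% and 2.98% of genes. That count of 4 was 0 without tumor replicate 2 or tumor replicate 3 (edgeR, with 6 and 5 partners at an unadjusted p under 0.05), 7 with DESeq2 and 16 with the replicate number as a block. The partner medians of 0.06 in control, 0.00 in tumor and 0.14 with AZD lay below the medians of the 14-3-3 genes themselves in the same libraries.

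How reads were counted is a further limit. The annotation lists 3 pseudogenes named for a member, and 0 of them had a row of their own in the count table. Copies under other names were not searched for. Whether reads shared with such copies were counted for the members is not given in the sources used. How far this affects any member is therefore not known.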

How the data were processed

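The deposited data are a table of raw read counts per gene symbol for 18 libraries, not normalized by the authors. Per the labels' protocols, the RNeasy Mini kit was used for the RNA and the NEBNext Ultra Directional kit, which keeps strand, for the libraries. Per the submitters' processing notes, STAR, DESeq2 and the mm10 genome were used. Their versions, the counter, its annotation and its strand setting were not given in the sources used here.

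After TMM scaling and filterByExpr, groups were compared by the quasi-likelihood test of edgeR 4.0.16 in R 4.3.3, and p-values were adjusted over all genes tested (Benjamini-Hochberg, threshold 0.05). Each condition had its own fit for IP against input (6 libraries), each fraction had a fit of its 9 libraries for comparisons between conditions, and the gap between fractions was compared over all 18. CPM were computed from the effective library sizes. Standard errors are the log2 fold divided by the square root of F. The steps were tested on simulated data.

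The members and all gene lists were chosen with earlier results of these data known. The text names all 7 members, up to 4 partners per group with the smallest adjusted p in a comparison and up to 1 that did not pass, and the 3 genes outside the family with the highest correlation (log2 CPM, prior count 2). Of the partner list, 1 gene that is counted in the totals is not reported here by name, so the genes named in its group do not show the direction of the whole group. Marker genes named are Camk2a, Pdgfra and Olig2. Same-numbered input and IP libraries correlated in their deviations from group means over 16016 genes, with r of 0.18 to 0.24 (control), 0.49 to 0.74 (tumor) and 0.23 to 0.47 (AZD), so the numbers pair the fractions. Libraries of 1 number in different conditions had r of -0.10 to 0.29, and between no 2 conditions was r above 0.1 for all 3 numbers. Alternatives were DESeq2 1.42.0, other scalings and filters, the number as a block, a single fit of all libraries and leaving out each replicate. Gene names, positions and promoters are from RefSeq GRCm38.p6. Python 3.11.15 with matplotlib 3.10.9 made the figures.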

Additional observations from a re-analysis of the deposited data

Results flagged for a closer look

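The gap between IP and input differed between conditions, by a direct test of the difference in edgeR over all 18 libraries, in 3 of the 7 members. Between AZD and tumor the difference was 0.83 (Ywhah), 0.70 (Ywhab) and 0.41 (Ywhaq) on the log2 scale, with the gap larger with AZD. Of 16016 genes, 12.3% had a larger gap and 20.8% a smaller one in that comparison. Between AZD and control the difference was 0.77 (Ywhah), 0.51 (Ywhab) and 0.37 (Ywhaq), again with the larger gap with AZD. There 11.7% of genes had a larger gap and 19.3% a smaller one. Over the 11 alternatives Ywhah was called in all 11 for both comparisons. Ywhab was called in 11 against tumor and 7 against control, and Ywhaq in 6 and 5. The IP library was above the input library of the same number in 3 of 3 pairs of each condition, other than Ywhaq in tumor (2 of 3), so this count does not set AZD apart. In the same tests the gap was larger with AZD for 6 of 8 excitatory-neuron markers (median 1.12 against tumor and 1.22 against control) and smaller for all 8 astrocyte markers (-1.88 and -2.12). All AZD libraries form a library set of their own, so set and treatment cannot be told apart here. The tumor and control libraries of these tests also entered the choice of the family, so their p-values are not free of that choice.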

How the results depend on the processing

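No result changed direction past the threshold under the alternatives run. The member count stayed at 5 in control IP against input under every alternative and at 6 with AZD under all but plain library totals (5), and Ywhah kept its larger gap with AZD in all 11 alternatives of both comparisons. In tumor IP against input the member count of 5 was 2 with a mean of at least 5 CPM and 0 to 5 with a replicate left out. The count of all genes called there, 776, was 1728 with DESeq2, 451 with a mean of at least 5 CPM, 2225 in 1 fit of all libraries and 0 to 1755 with a replicate left out (0 without tumor replicate 2 in edgeR, with 1419 at an unadjusted p under 0.05). The partner count of 4 was 7 with DESeq2 and 0 to 6 with a replicate left out. The member count for the gap between AZD and control, 3, was 1 with plain library totals and 1 to 3 with a replicate left out. Partners called in control IP against input, 19, were 11 in 1 fit of all libraries and 11 to 16 with a replicate left out, and partners in AZD against tumor input, 3, were 6 with DESeq2 and 0 to 3. Gene counts with a replicate left out were 3134 to 4608 in control (5461 in full), 5929 to 9569 with AZD (9245), 3498 to 5926 for the gap between AZD and tumor (5296) and 3163 to 4442 for that between AZD and control (4953).

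With the replicate number as a block, pairing input and IP of a number, the gene counts were 5433 for tumor IP against input, 8025 for the gap between AZD and tumor and 7599 for that between AZD and control, and the partner count in tumor was 16. The block changed no member's call. Plain library totals moved the median log2 fold of all genes by -0.28 in AZD IP against input, -0.13 in AZD against tumor IP, -0.18 in the gap between AZD and tumor and -0.15 in that between AZD and control. In 30 cases a member lost its call under an alternative, and 5 values without a test moved by more than the spread between replicates, each under plain totals. Sfn had at most 35 counts in a library, which limits its precision. The cause of these changes was not tested.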
